A study of Mus musculus with 4 samples.

Results

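The genes described here are 9 markers of alveolar macrophages (Marco, Siglecf, Ear2, Fabp1, Krt79, Plet1, Atp6v0d2, Mcoln3 and Abcg1), chosen by symbol among the 24063 gene symbols of the deposited tables. Siglecf, listed there under its older symbol Siglec5, was matched by its RefSeq accession, and the other symbols were found as written. All 9 passed the filter on low counts. Alveolar macrophages are the phagocytes that live on the air side of the alveolus, where they take up inhaled particles and break down spent surfactant. The cytokine GM-CSF, made mainly by alveolar type 2 cells, and the nuclear receptor PPARγ drive their differentiation, and the mature cell is known for surface receptors such as MARCO and Siglec-F and for a large machinery of lysosomes and lipid handling.

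RNA was sequenced from ECs isolated from the lungs of 8 week old C57BL6 mice (C57BL6J in the methods of the study), either 7 days after left pneumonectomy (PNX) or from sham-operated mice that underwent thoracotomy only. Each group had 2 libraries, and each library held the pooled cells of 2 mice described as male. The cells were enriched with an antibody to CD31 and magnetic beads, without a step that selects macrophages. All values thus describe transcripts of the named genes within an endothelial fraction, from whichever of its cells express them. In such bulk samples fewer cells of a type and less RNA per cell cannot be told apart.

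With 1 transcript per gene, the libraries held between 41367438 and 50952879 counts, and 3 counts corresponded to between 0.0589 and 0.0725 CPM (counts scaled to the library total), a limit that covers counting error only. Pecam1, which encodes the sorted antigen CD31, had 90948 ± 240 (SD, n = 2) normalized counts in sham and 90402 ± 294 (SD, n = 2) in post-PNX ECs. Ptprc, which encodes the leukocyte antigen CD45, had 11566 ± 44.1 (SD, n = 2) and 11544 ± 171 (SD, n = 2), so leukocyte RNA was present in every library although the methods describe a FACS check of the cells as negative for CD45. The libraries did not match their description as male, since none of 44 chromosome Y genes had a count and Xist had between 31873 and 33793 normalized counts in each of them.

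Genes were called when they differed more than 2-fold (1 on the log2 scale) with an adjusted p under 0.01 by edgeR. Marco was the single gene of the 9 called higher after PNX, and none was called lower. Among all 16208 genes tested, 5.9% were higher and 1.66% lower by this rule, 7.56% in either direction. With adjusted p under 0.01 and no limit on fold, 2 of the 9 were higher and 5 lower, against 29.3% and 27.8% of all genes tested, or 57.1% in either direction. Of the 5 lower genes, Siglecf and Fabp1 were also lower when libraries were scaled to 12 endothelial genes, whereas Ear2 was not. Krt79 and Abcg1 were higher under that scaling, with edgeR adjusted p of 0.0063 and 0.00021. At an unadjusted p under 0.05 without that scaling, 3 of the 9 were higher and 5 lower, against 34.6% and 33.6% of all genes tested. DESeq2 called 1 higher and 0 lower by the first rule, against 5.09% and 1.16% of all genes. The median log2 fold change of the 9 genes was -0.13, beside 0.0012 over all genes tested, and it turned to 0.13 under this scaling. The scaling moved the median of all genes tested to 0.26, so the median of the 9 genes stayed below it. For each of the 9 genes the sham and post-PNX libraries did not overlap, which also held for 81.2% of all genes tested (40.8% with post-PNX higher and 40.5% with post-PNX lower).

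**Figure D1:**
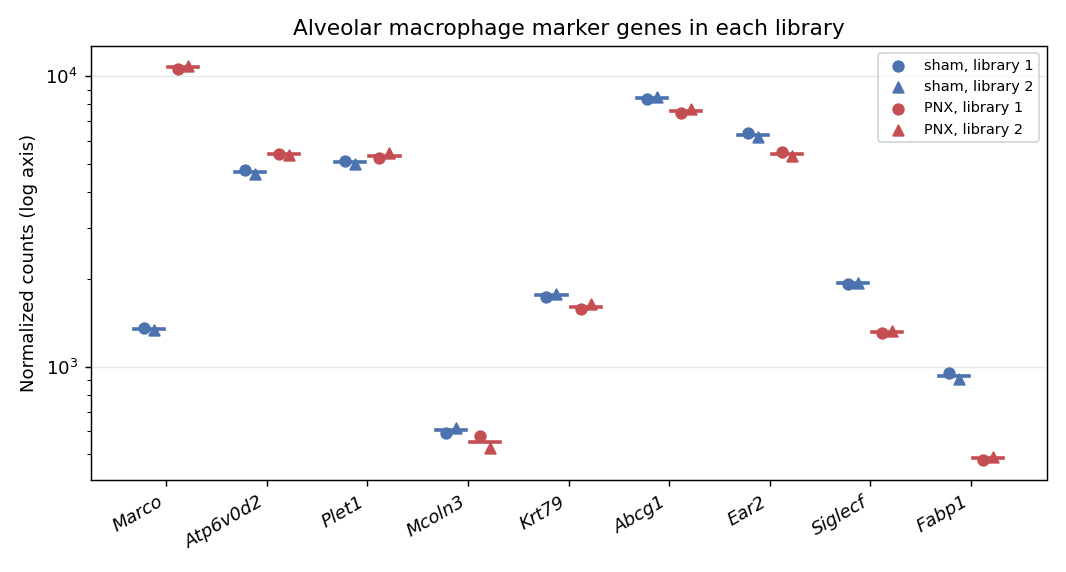
Normalized counts (vertical log axis) of the 9 marker genes in the 2 sham and 2 post-PNX libraries, ordered by fold change, with each symbol a library and each line a group mean. Marco stood between 10593 and 10882 after PNX against 1339.5 to 1366 in sham, while the groups lay close together for most of the other genes.

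Marco, on chromosome 1 from 120474538 to 120505024 (GRCm38.p6, as for all positions given), encodes a scavenger receptor that binds bacteria and unopsonized particles. The sham libraries held 1366 and 1339.5 normalized counts of Marco and the post-PNX libraries 10593 and 10882. Both post-PNX libraries were thus far above both sham libraries, and the replicates of a group lay close together. The mean was 1353 ± 18.8 (SD, n = 2) in sham and 10737 ± 204 (SD, n = 2) in post-PNX ECs, a ratio of 7.94. On the log2 scale this was a rise of 2.99 ± 0.030 (SE, edgeR adjusted p = 7.5e-64), and 148 of the genes tested had a larger one.

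Siglecf, on chromosome 7 from 43351341 to 43359475, encodes a sialic acid-binding receptor that is used, together with CD11c, to gate alveolar macrophages, and that eosinophils carry as well. It had 1934 and 1939.9 normalized counts in sham and 1307 and 1329 in post-PNX ECs. The 2 groups were well apart, and each was tight. The mean fell by 32.0%, a log2 fold change of -0.56 ± 0.041 (SE, edgeR adjusted p = 1.1e-18), short of the fold threshold. Siglecf was thus lower and Marco higher, also under scaling to the endothelial genes (-0.29 and 3.25). That the receptors changed unequally can be read within each library, without any scaling between libraries. For each count of Siglecf, the sham libraries held 0.706 and 0.690 counts of Marco and the post-PNX libraries 8.11 and 8.19.

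Fabp1, on chromosome 6 from 71199879 to 71205034, encodes a fatty acid-binding protein best known from liver and gut that mouse alveolar macrophages also make. It had 955 and 907 normalized counts in sham and 477 and 491 in post-PNX ECs. The mean went from 931 ± 33.6 (SD, n = 2) to 484 ± 10.5 (SD, n = 2), a decrease that was the largest among the 9 genes. The log2 fold change was -0.95 ± 0.061 (SE, edgeR adjusted p = 3.5e-21), with a 95% confidence interval from -1.07 to -0.82 that spans the fold threshold.

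Abcg1, on chromosome 17 from 31057694 to 31117984, encodes a cholesterol exporter that alveolar macrophages need to clear surfactant lipid and that ECs also express. It had 8361 and 8475 normalized counts in sham and 7472 and 7747 after PNX, with every post-PNX library below every sham library. On the log2 scale the change was -0.15 ± 0.023 (SE, edgeR adjusted p = 1.6e-07), and it was 0.12 under scaling to the endothelial genes. The 2 lipid genes changed unequally, with 0.114 and 0.107 counts of Fabp1 for each count of Abcg1 in the sham libraries and 0.0638 and 0.0634 after PNX.

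The 2 genes of the endolysosomal system differed by less than the fold threshold between the groups. Atp6v0d2, on chromosome 4 from 19876838 to 19922566, encodes a subunit of the proton pump that acidifies lysosomes. It had 4763 and 4620.0 normalized counts in sham and 5411 and 5377 in post-PNX ECs, a log2 fold change of 0.20 ± 0.027 (SE, edgeR adjusted p = 1.4e-09) that was 0.46 under scaling to the endothelial genes. Mcoln3, on chromosome 3 from 146093277 to 146141808, encodes a cation channel of endosomes and lysosomes. It had 593 and 617 normalized counts in sham and 579.8 and 527 in post-PNX ECs. The difference of -0.12 ± 0.067 on the log2 scale did not pass the test (SE, edgeR adjusted p = 0.0965), its 95% confidence interval ran from -0.26 to 0.0093, and it was 0.14 under scaling to the endothelial genes.

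Plet1 and Krt79 are known from epithelia and belong to the transcripts by which mouse alveolar macrophages are told from other macrophages. Plet1, on chromosome 9 from 50494525 to 50505639, encodes a membrane protein and had 5132 and 5007 normalized counts in sham and 5234 and 5444 after PNX, so that the post-PNX libraries were only slightly above the sham libraries. The log2 fold change of 0.07 had a 95% confidence interval from 0.020 to 0.13 and an edgeR adjusted p of 0.0139. Krt79, a keratin gene on chromosome 15 from 101929332 to 101940324, had 1744 and 1781 normalized counts in sham and 1576 and 1640.2 after PNX, with every post-PNX library below every sham library. On the log2 scale the change was -0.13 ± 0.041 (SE, edgeR adjusted p = 0.0033), with an adjusted p of 0.0626 in DESeq2's Wald test and a value of 0.13 under scaling to the endothelial genes.

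Ear2, on chromosome 14 from 44102654 to 44103531, encodes an eosinophil-associated ribonuclease of a gene family that has expanded in the mouse. It had 6401 and 6205 normalized counts in sham and 5499 and 5325 in post-PNX ECs, a log2 fold change of -0.22 ± 0.026 (SE, edgeR adjusted p = 3.5e-11) that became 0.041 under scaling to the endothelial genes. The value is uncertain because the family holds near-identical copies. Ear3 and Ear12 had the same counts as each other in every library, 6949 and 5989 in sham and 5507 and 4712 after PNX, which was between 98.3% and 98.6% of the Ear2 counts. Neither symbol is in the RefSeq table of GRCm38.p6. These counts are not 3 separate measurements, and how reads that match several copies were counted is not given in the sources used here.

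The close relative Ear1, also a marker of alveolar macrophages, had its own counts. Its transcript was 96.9% identical to that of Ear2 over 713 aligned bases, but only 8.22% of the 75-base windows of the Ear2 transcript occurred in it unchanged. The mean of Ear1 fell from 2132 ± 21.8 to 1002 ± 67.7 normalized counts (SD, n = 2 each), a log2 fold change of -1.09 ± 0.044 (SE, edgeR adjusted p = 4.6e-31), and it was short of the fold threshold at -0.83 under scaling to the endothelial genes. Relative to Ear2, its counts were 33.5% and 34.1% in sham and 19.1% and 17.9% after PNX, both post-PNX libraries being below both sham libraries. Other members of the family went the other way. Ear6 had 41 and 39 counts in sham and 90 and 71 after PNX, and Ear7 had 37 and 38 against 84 and 62. The symbol Ear7, too, is not in the RefSeq table of GRCm38.p6, and its counts lay close to those of Ear6. Whether Ear6 and Ear7 are separate measurements is thus not known. Rnase2b had 12 and 4 against 62 and 45. Rnase2a had 2 and 1 counts in sham and 741 and 586 after PNX, a ratio of 482 for the summed counts after scaling to the library sizes, with an exact 95% counting interval from 164 to 2338. Ear10 had 0 and 5 counts in sham and 1 and 1 after PNX and was not tested, while Ear4 and Ear14 had 0 counts in every library.

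**Figure D2:**
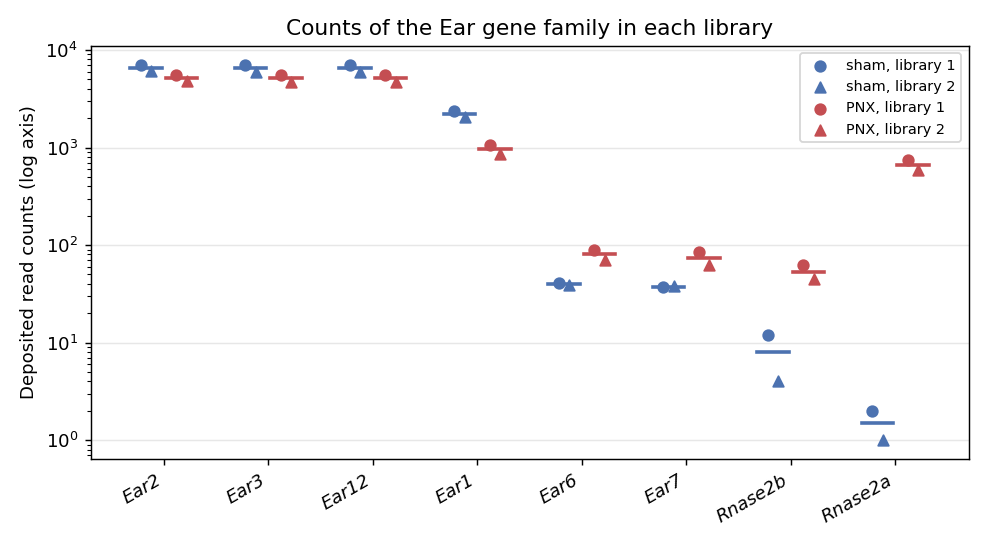
Deposited read counts (vertical log axis) of 8 Ear family genes in each sham and post-PNX library, not normalized, with lines at the group means. Ear2, Ear3 and Ear12 show nearly the same counts, Ear1 is lower after PNX, and Rnase2a goes from 2 and 1 counts in sham to 741 and 586.

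The 250 bases before the transcript start are shown for Ear1 and Ear2 because these copies are alike beyond the transcript. The sequences (RefSeq, GRCm38.p6) agree in 246 of 248 aligned bases, and capitals mark the aligned bases that differ. Ear1 lies on the minus strand at chr14:43819640-43819889 and Ear2 on the plus strand at chr14:44102404-44102653.
Ear1: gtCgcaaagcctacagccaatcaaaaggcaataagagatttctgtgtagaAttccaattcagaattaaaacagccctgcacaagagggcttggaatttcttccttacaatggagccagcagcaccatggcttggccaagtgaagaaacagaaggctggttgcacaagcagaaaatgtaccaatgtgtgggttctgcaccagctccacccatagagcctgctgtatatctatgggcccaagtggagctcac
Ear2: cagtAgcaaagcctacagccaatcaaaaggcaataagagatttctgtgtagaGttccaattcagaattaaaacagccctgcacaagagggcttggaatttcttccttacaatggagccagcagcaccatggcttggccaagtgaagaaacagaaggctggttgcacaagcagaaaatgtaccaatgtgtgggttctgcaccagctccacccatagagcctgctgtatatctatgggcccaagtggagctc

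Upstream sequences were at hand for 7 of the 9 genes, all but Abcg1 and Atp6v0d2. They were searched on both strands for GAGGAA, which reads TTCCTC on the other strand and forms the core letters of sites bound by PU.1, a transcription factor of all myeloid cells. The letters occurred in 4 of the 7, against 23.3% of 32851 promoters of the same 250 bases. The genes with a match were Marco, Siglecf, Fabp1 and Mcoln3. The half-site AGGTCA, or TGACCT on the other strand, of nuclear receptors such as PPARγ occurred in Fabp1 and Plet1, and in 14.0% of all promoters. The sequences of the 3 genes with the largest changes are shown with the GAGGAA match in capitals, for Marco (minus strand, chr1:120505025-120505274), Siglecf (plus strand, chr7:43351091-43351340, where the match is on the other strand) and Fabp1 (plus strand, chr6:71199629-71199878).
Marco: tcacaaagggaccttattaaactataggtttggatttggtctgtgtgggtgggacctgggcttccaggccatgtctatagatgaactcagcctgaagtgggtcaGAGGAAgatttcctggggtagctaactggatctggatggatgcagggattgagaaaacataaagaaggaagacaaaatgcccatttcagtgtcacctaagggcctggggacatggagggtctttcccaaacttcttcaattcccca
Siglecf: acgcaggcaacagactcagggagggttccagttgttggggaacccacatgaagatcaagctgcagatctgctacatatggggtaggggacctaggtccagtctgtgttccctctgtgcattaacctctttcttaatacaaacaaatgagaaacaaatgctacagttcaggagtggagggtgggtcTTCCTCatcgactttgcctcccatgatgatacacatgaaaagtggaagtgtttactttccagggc
Fabp1: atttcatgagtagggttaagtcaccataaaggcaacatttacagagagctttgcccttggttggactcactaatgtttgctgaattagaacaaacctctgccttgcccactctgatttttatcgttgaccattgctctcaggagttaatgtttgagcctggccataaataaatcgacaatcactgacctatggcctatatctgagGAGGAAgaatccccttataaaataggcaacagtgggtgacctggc
The match lies 146 bases before the start in Marco, 65 in Siglecf and 45 in Fabp1, counted to its outer end. It is present in Marco, which was higher after PNX, and in Siglecf and Fabp1, which were lower. No binding was measured here.

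Levels were compared between genes by the authors' FPKM, which corrects for transcript length. In sham ECs Ear2 was the highest at 120 ± 2.59 FPKM (SD, n = 2), followed by Plet1 at 37.3 ± 0.636 (SD, n = 2). Fabp1 at 25.7 ± 0.920 and Atp6v0d2 at 25.5 ± 0.541 (SD, n = 2 each) did not differ beyond their spread. Abcg1 had 19.7, Krt79 11.4, Siglecf 10.5, Marco 9.26 and Mcoln3 4.80 FPKM. Marco was thus eighth of the 9 genes in sham ECs. After PNX it was second with 73.9 ± 1.27 FPKM (SD, n = 2), behind Ear2 at 103 ± 2.53 (SD, n = 2) and ahead of Plet1 at 39.5 ± 1.03 (SD, n = 2). Fabp1 went from place 3 to place 6 of this order with 13.4 FPKM, and Mcoln3 stayed the lowest with 4.42. The level of Ear2 includes reads that were also counted for its copies.

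**Figure D3:**
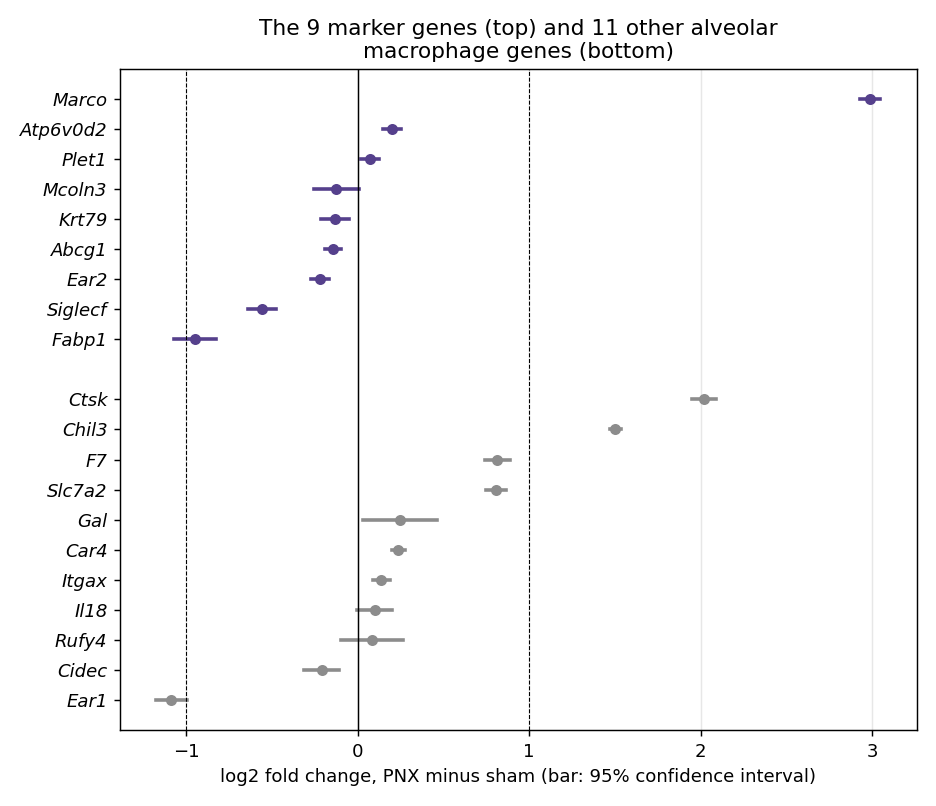
The log2 fold change of PNX minus sham (horizontal axis) for the 9 marker genes in the upper block and for 11 other alveolar macrophage genes in the lower block, with 95% confidence intervals as bars and dashed lines at -1 and 1. Marco stands alone at 2.99 among the marker genes, and in the lower block Ctsk is the highest at 2.02 and Ear1 the lowest at -1.09 (-0.83 under scaling to the endothelial genes).

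To see whether other transcripts of the same cell went with Marco or with the rest, a second list of 12 alveolar macrophage genes was examined, of which 11 were tested. Of these, 2 were higher and 1 was lower past both thresholds. With an adjusted p under 0.01 alone, 6 of them were higher and 2 lower, against 29.3% and 27.8% of all genes tested. The median log2 fold change was 0.24. Scaling to the endothelial genes gave a median of 0.50, and under it F7 and Slc7a2, both at 0.81, also passed the fold threshold at 1.08 and 1.07, Ear1 no longer did, and Cidec, a gene of lipid droplets that was lower at -0.21, had 0.052. Ctsk, which encodes the lysosomal protease cathepsin K, rose from 1143 ± 11.9 to 4636 ± 16.2 normalized counts (SD, n = 2 each), a log2 fold change of 2.02 ± 0.035 (SE, edgeR adjusted p = 9.8e-51). Chil3, the chitinase-like protein Ym1 and the most abundant transcript of the list, rose from 66368 ± 224 to 187945 ± 3365 (SD, n = 2 each), a log2 fold change of 1.50 ± 0.016 (SE, edgeR adjusted p = 9.1e-63). Ctsk is also made by fibroblasts and Chil3 by monocytes and neutrophils. The lower gene was Ear1, described above. F7, Slc7a2, Cidec and Itgax were chosen after their values were seen. Itgax, which encodes CD11c, had a log2 fold change of 0.14 ± 0.024 (SE, edgeR adjusted p = 1.2e-06). The second list thus held genes that rose, genes that fell and genes that changed little, as the 9 marker genes did.

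Transcripts of the factors by which the lung specifies alveolar macrophages changed by less than 2-fold. Which cells of the endothelial fraction made them cannot be told from these libraries. Of 10 such genes none passed both thresholds in either direction with edgeR or DESeq2. With an adjusted p under 0.01 in edgeR, 9 were higher and 1 lower, against 29.3% and 27.8% of all genes tested. The same 9 and 1 had an unadjusted p under 0.05, against 34.6% and 33.6% of all genes tested. Their median log2 fold change was 0.29, or 0.55 under scaling to the endothelial genes. Csf2, which encodes GM-CSF, had 62.5 and 75.4 normalized counts in sham and 94.3 and 108 in post-PNX ECs, a log2 fold change of 0.55 ± 0.17 (SE, edgeR adjusted p = 0.0035). Csf2 had an adjusted p of 0.0804 with DESeq2, and with edgeR of 0.0682 without the first sham library (log2 fold change 0.42) and 0.0614 without the second post-PNX library (0.46). With DESeq2, 7 of the 10 genes were higher with an adjusted p under 0.01, and the share of all genes at that limit with DESeq2 is not given here. Csf2rb2, a receptor subunit gene of the same cytokine family, had a log2 fold change of 0.49, and Cebpb, a transcription factor of myeloid cells, one of 0.48. The single lower gene was Pparg, chosen after its values were seen. It had 1255 and 1283 normalized counts in sham and 1018 and 1052 in post-PNX ECs, a log2 fold change of -0.29 ± 0.048 (SE, edgeR adjusted p = 2.2e-07) that was -0.034 under scaling to the endothelial genes.

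Of 12 genes for the uptake and clearance of surfactant lipid, 2 were higher and none lower past both thresholds, with DESeq2 as with edgeR, and 1 was lower at an unadjusted p under 0.05 by edgeR. With an adjusted p under 0.01 alone, 7 were higher and 1 lower, against 29.3% and 27.8% of all genes tested. The 2 called genes encode fatty acid-binding proteins related to Fabp1. Fabp4 rose from 1058 ± 1.36 to 2414 ± 25.9 normalized counts (SD, n = 2 each), a log2 fold change of 1.19 ± 0.041 (SE, edgeR adjusted p = 9.0e-35), and Fabp5 from 1961 ± 39.4 to 4105 ± 28.3 (SD, n = 2 each), a log2 fold change of 1.06 ± 0.032 (SE, edgeR adjusted p = 1.3e-37). Fabp1 moved the other way from both. Fabp4 is also made by capillary ECs and adipocytes, and Fabp5 by many cells. Cd36, a fatty acid transporter of macrophages and capillaries, went from 137525 ± 3686 to 91273 ± 87.4 normalized counts (SD, n = 2 each), a log2 fold change of -0.59 ± 0.016 (SE, edgeR adjusted p = 2.0e-40) that was -0.33 under scaling to the endothelial genes. Under that scaling 11 of the 12 genes were above 0, with a median of 0.44 beside 0.17 without it. The median of all genes tested was 0.26 under the scaling and 0.0012 without it.

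Several of the 9 genes are shared with other cells, and markers of 2 other macrophage classes rose as Marco did. Macrophages of the pleural and peritoneal cavities, which also carry MARCO, were followed by 7 genes, 6 of them higher and none lower past both thresholds by edgeR or DESeq2 (7 higher and 0 lower at an unadjusted edgeR p under 0.05), with a median log2 fold change of 2.10. Their summed level lay between 2451 and 2494 normalized counts in sham and between 11670.1 and 11820 in post-PNX ECs, and none of the 7 was at 0. Cd5l, an inhibitor of apoptosis made by tissue macrophages, rose from 58.7 to 2769.7 normalized counts, a log2 fold change of 5.55, while Gata6, the defining factor of cavity macrophages that other lung cells express as well, had a log2 fold change of 0.64. Of 8 interstitial macrophage genes, 6 were higher and none lower by either tool (8 higher and 0 lower at an unadjusted edgeR p under 0.05), with a median of 2.60. Their summed level lay between 20191 and 20587 in sham and between 39678 and 39929 after PNX. The complement gene C1qb had a log2 fold change of 2.98, close to that of Marco, and Stab1, the most abundant gene of this list, one of 0.17. Stab1 held a large part of the summed level, with a mean of 16643 normalized counts in sham and 18660.5 after PNX. Which cells made Stab1 cannot be told here, so the sum is not a measure of interstitial macrophages alone. Among all genes tested 5.9% were higher past both thresholds by edgeR, and 34.6% were higher at an unadjusted edgeR p under 0.05. The part of cavity and interstitial macrophages in the rise of Marco was not tested.

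Of 8 markers shared by macrophages in general, 2 were higher and none lower past both thresholds by edgeR or DESeq2. Among all genes tested 5.9% were higher by this rule in edgeR. At an unadjusted edgeR p under 0.05, 7 of the 8 were higher and 1 lower, against 34.6% and 33.6% of all genes tested. The median log2 fold change of the 8 genes was 0.76. Under scaling to the endothelial genes 4 of the 8 were higher past both thresholds, and the median was 1.03. Of all 16208 genes tested, 1329 were higher past both thresholds under this scaling, with a median of 0.26. Adgre1, a surface receptor of mature macrophages, had a log2 fold change of 1.22, and Lyz2, the most abundant gene of the list, one of 0.20. Their summed level lay between 172680.0 and 173518 normalized counts in sham and between 211400.0 and 212799 after PNX. Markers of all leukocytes had a median log2 fold change of 0.085 over 6 genes, with none past both thresholds by edgeR or DESeq2 and 3 higher and 1 lower at an unadjusted p under 0.05. Laptm5 and Cd53 had log2 fold changes of 0.16 and 0.30. Under scaling to the endothelial genes the median was 0.35 and all 6 genes were above 0, beside a median of 0.26 over all genes tested.

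Eosinophils, which share Siglecf and Ear genes with alveolar macrophages, were followed by 5 genes with a median log2 fold change of 0.78. Past both thresholds 1 was higher and none lower (a median of 1.04 and 2 genes higher under scaling to the endothelial genes). At an unadjusted edgeR p under 0.05, 3 were higher and 1 lower (Il5ra at -0.38), against 34.6% and 33.6% of all genes tested. The median is the value of Prg3, which had 12 and 5 counts in sham and 20 and 7 after PNX, with overlapping groups. Prg2, which encodes major basic protein, had 177 and 136 normalized counts in sham and 258 and 255 after PNX, and the chemokine receptor gene Ccr3 had 54.4 and 55.0 against 197.5 and 195. The summed level of the 5 genes was low, between 287 and 349 in sham and between 560.5 and 576 after PNX. It was higher after PNX, while Siglecf and Ear1 were lower. The part of eosinophils in the values of Siglecf and Ear1 was not tested. Monocyte markers had a median of 0.12 over 8 genes, with Vcan higher at a log2 fold change of 2.73, Treml4 lower at -1.07 (-0.81 under scaling to the endothelial genes) and Nr4a1, the most abundant, at 0.17. Under scaling to the endothelial genes the median of the monocyte markers was 0.38, with 2 genes higher and 0 lower past both thresholds. That of all genes tested was 0.26 under this scaling. The summed level of the monocyte markers was between 32348 and 32373 in sham and between 39232 and 40071 after PNX. Nr4a1 held most of it, with a mean of 24664 normalized counts in sham and 27817 after PNX. Which cells of the endothelial fraction made Nr4a1 cannot be told from these libraries, so the sum is not a measure of monocytes alone. Neutrophil markers had a median of 0.16 over 5 genes (S100a9 at 0.16, Retnlg at 0.50) that was 0.42 under scaling to the endothelial genes, and dendritic cell markers one of -0.12 over 6 genes (Clec9a at -0.25, Zbtb46 at -0.50) that was 0.14 under the same scaling, where Clec9a had 0.013 and Zbtb46 -0.24. No neutrophil or dendritic cell gene passed both thresholds by edgeR or DESeq2, while 4 and 0 were higher and 1 and 3 lower at an unadjusted p under 0.05.

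Alveolar type 2 cells, the neighbors of alveolar macrophages in the airspace and the source of surfactant, were followed by 7 genes. All 7 were lower with an adjusted p under 0.01 and none past both thresholds by edgeR or DESeq2, with a median log2 fold change of -0.62. With an adjusted p under 0.01, 29.3% of all genes tested were higher and 27.8% lower. Their summed level lay between 330893 and 331410 normalized counts in sham and between 213131 and 214590 in post-PNX ECs. Sftpc, which encodes surfactant protein C, had a log2 fold change of -0.62 and Sftpa1 one of -0.71. Under scaling to the endothelial genes the median was -0.36. Of 12 endothelial genes, 10 were lower and 1 higher with an adjusted p under 0.01, none of them past both thresholds by edgeR or DESeq2, with a median of -0.25 that the scaling to these same genes moves to 0.013. Among the genes, Cdh5 had -0.22 (0.041 under that scaling) and Eng -0.54 (-0.28). The part of these cell fractions in the values of the 9 genes was not tested.

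**Figure D4:**
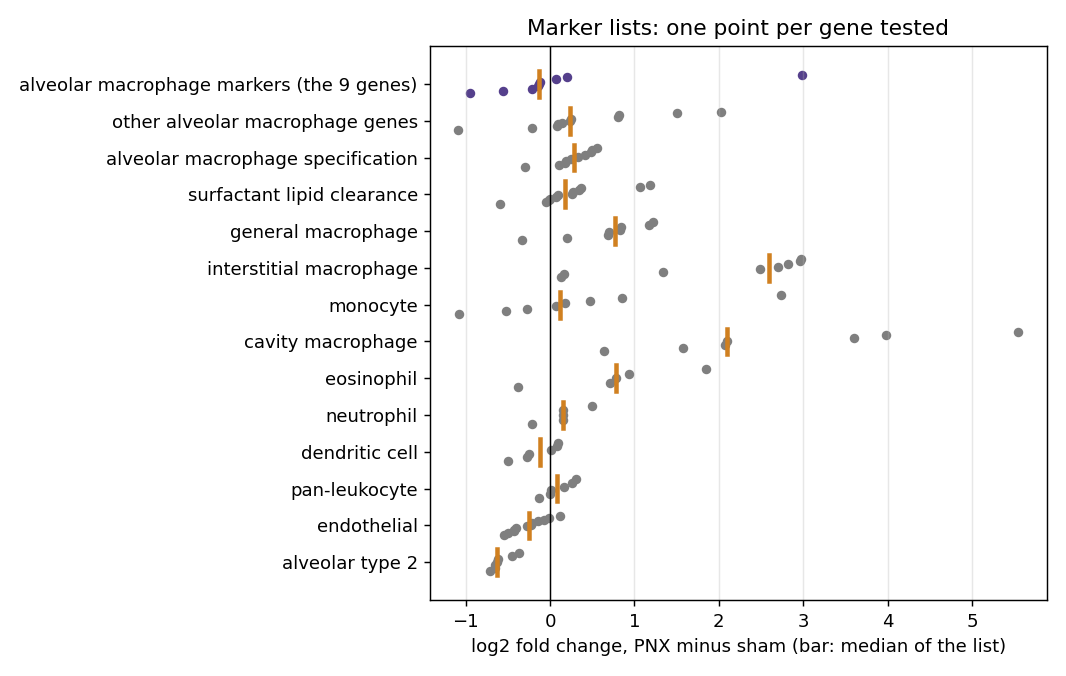
The log2 fold change of PNX minus sham (horizontal axis) for each gene tested of 14 marker lists, with 1 point per gene and an orange bar at the list's median. The 9 alveolar macrophage markers center on -0.13 (0.13 under scaling to the endothelial genes) with Marco apart at 2.99, whereas the interstitial and cavity macrophage lists center on 2.60 and 2.10.

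The contrast between Marco and the rest of the 9 genes did not depend on how the libraries were scaled. For each count of Plet1, the sham libraries held 0.266 and 0.268 counts of Marco and the post-PNX libraries 2.02 and 2.00. For each count of Atp6v0d2 there were 0.287 and 0.290 against 1.96 and 2.02, and for each count of Fabp1 there were 1.43 and 1.48 against 22.2 and 22.1. Among the genes other than Marco, Siglecf also shifted against Plet1, from 0.377 and 0.387 counts for each count of Plet1 to 0.250 and 0.244. The summed level of the 8 genes without Marco lay between 29553 and 29884 normalized counts in sham and between 27555 and 27882 in post-PNX ECs. With 2 libraries per group an exact permutation test of such ratios cannot give a two-sided p below 0.333, so they are given as values.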

How the data were processed

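The members and gene lists were chosen with earlier results of these data known. Per the paper's methods, stranded mRNA libraries underwent paired-end sequencing, with reads mapped to mm10. STAR is named in the submitters' processing notes, but the counting program is not given in the sources used here. The authors deposited, for each of 33068 RefSeq transcripts, raw read counts, FPKM values and TPM values. All tests used the counts. The deposited FPKM served to compare levels between genes, and the deposited TPM were not used. Where a symbol had several transcripts, the one with the highest summed counts was used.

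Counts were analyzed with edgeR 4.0.16 in R 4.3.3 (filterByExpr, TMM factors, quasi-likelihood test, Benjamini-Hochberg adjustment over 16208 genes). The thresholds for calling a gene were those of the study, 1 on the log2 scale and an adjusted p of 0.01. Normalized counts are scaled to the mean library size of 46083087. The replicates are pools of different mice, and p-values measure only the spread between pools. Within groups, libraries differed by a mean chi-square per gene of 1.53 to 1.77, so none was a copy. Between same-numbered libraries of the 2 groups the value was 134 and 119. Counting error alone gives about 1, so the spread behind the p-values was little above counting error. Whether it holds the full variation between mice was not tested, and small p-values should be read with this limit. The test was checked on simulated data drawn with 1 dispersion for all genes, estimated from these libraries. With an adjusted p under 0.01 it recovered 72 of 100 genes changed 1.2-fold and 100 of 100 changed 3-fold. Of 16008 unchanged genes 0 passed. This check cannot show how the p-values behave if mice vary more than these libraries do. Named genes were the 9 markers and the Ear family, with Pecam1, Cdh5 and Ptprc. Of the 3 lists on alveolar macrophage genes, their specification and surfactant lipid, genes past the thresholds were named, or up to 3 with the largest changes where fewer passed. Of each remaining list, the gene with the largest change and the one with the most counts were named. Il5ra and Prg3 of the eosinophil list were added after their values were seen. Alternatives included DESeq2 1.42.0, other scalings, filters, a replicate block and leaving out each library. Coordinates are those of RefSeq on GRCm38.p6.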

Additional observations from a re-analysis of the deposited data

How the results depend on the processing

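With 2 libraries per group, the rise of Marco held its direction and its call under every alternative run. Leaving out each library in turn, where the lone library of a group is assumed to vary like the other group, gave log2 fold changes of 2.97 to 3.01 for Marco, -0.57 to -0.54 for Siglecf, -0.98 to -0.91 for Fabp1, -0.24 to -0.20 for Ear2, -0.17 to -0.12 for Abcg1, 0.18 to 0.22 for Atp6v0d2, -0.20 to -0.060 for Mcoln3, -0.16 to -0.10 for Krt79 and 0.046 to 0.10 for Plet1. Krt79 lost its adjusted p under 0.01 without the second sham library (-0.12, adjusted p = 0.0285 in edgeR) and without the first post-PNX library (-0.10, adjusted p = 0.0884), and Plet1 gained it without the first post-PNX library (0.10, adjusted p = 0.0063). The median of the 9 genes ranged from -0.16 to -0.12. Scaling to 12 endothelial genes turned Ear2 to 0.041, Krt79 to 0.13, Mcoln3 to 0.14 and Abcg1 to 0.12. It turned the median of the 9 genes to 0.13 and gave Plet1 0.33. Krt79, Abcg1 and Plet1 were then higher with an adjusted p under 0.01, while Ear2 and Mcoln3 did not pass. At that limit 5 of the 9 genes were higher and 2 lower under this scaling. The share of all genes at that limit under this scaling is not given here, so the count cannot be set against it. The setting raises all genes by construction. Krt79 did not pass with DESeq2 (-0.13) or with counts summed over transcripts (-0.13), and Plet1 passed with library size alone (0.077). The replicate numbers do not pair the mice, and the deviations of same-numbered libraries correlated by 0.023 over genes. With the number as a replicate block, Plet1 passed (0.073), no other gene of the 9 crossed the threshold of 0.01, and 957 higher and 272 lower genes were called in all. Without a fold threshold 2 of the 9 genes were higher and 5 lower. Over all genes, called numbers were 957 higher and 269 lower, but 719 and 160 with a mean of at least 50 counts and 1329 and 84 under the endothelial scaling, which took the higher share well above the main one. The filter on mean counts left 14298 genes to test instead of 16208, and the endothelial scaling moved the median log2 fold change of all genes tested to 0.26.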
